A study of Homo sapiens with 6 samples.

Results

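The aminoacyl-tRNA synthetases are the enzymes that load each amino acid onto its transfer RNA, and 36 of their genes were followed here in SiHa cells after knockdown of CNN3. They were chosen by name, as the rows of the count table whose Ensembl identifier maps to a listed synthetase symbol, and the rule itself uses no measured value. Earlier results of these data were known, however, when the members and the related lists were chosen. All 36 were found among the 48162 genes of the table, and all 36 were among the 15860 genes with enough counts to be tested. Of these, 20 encode the cytosolic enzymes and 16 encode mitochondrial enzymes, whose symbols end in 2. GARS and KARS make both forms from a single gene and were counted with the cytosolic enzymes. Older symbols are used, as in the gene annotation applied to the table (AARS is now AARS1, and EPRS is EPRS1).

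Cells keep separate sets of synthetases for the cytosol and for the mitochondrion, where the products of the mitochondrial genome are translated. Several cytosolic synthetases are held together with scaffold proteins in the multisynthetase complex, and the rest act outside it. When amino acids run short, uncharged transfer RNA activates the kinase GCN2, and the transcription factor ATF4 then raises genes for amino acid synthesis and uptake and for several cytosolic synthetases.

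SiHa is an established human cervical cancer cell line derived from the cervix. One group of 3 samples was transfected with si-CNN3 (the small interfering RNA named si-CNN3#1, against the actin-binding protein calponin 3), and the other group of 3 samples was transfected with the control si-NC. RNA was taken 48 h after transfection in both groups, with the transfection medium replaced after 24 h according to the sample labels (the Methods give another hour). A single siRNA against CNN3 was sequenced, so what it did through CNN3 and what it did otherwise cannot be told apart.

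Counts on genes totalled 18147028 to 19026341 per sample with si-CNN3 and 20287139 to 24976517 with si-NC. CNN3 itself fell to 50.9% of its si-NC level, from 1134, 1288 and 1234 counts down to 490, 514 and 574 (log2 fold change -0.97, SE 0.06, edgeR adjusted p = 2.04e-20). The quasi-likelihood test of edgeR called 978 genes higher and 1133 lower with si-CNN3 at an adjusted p of 0.05, so that 46.3% of the calls were higher. That share was 60.0% when samples were scaled by total counts only and 58.6% in limma's test on log2(FPKM + 1). Markers of epithelial cells summed to between 1429 and 1506 CPM in the 6 samples. Those of fibroblasts summed to between 9.43 and 10.4 CPM, and those of endothelium to at most 0.683 CPM. CPM is the count of a gene scaled to the normalized library total, except in the marker sums, which use the plain total of counts. Of the 7 epithelial markers, KRT8 and KRT18 fell (log2 fold changes -0.19 and -0.18) and KRT17 rose (0.23). The 5 lymphoid and myeloid markers summed to 121 to 128 CPM with si-CNN3 and 144 to 155 CPM with si-NC, nearly all of it from CD14, while the leukocyte marker PTPRC was below 1 CPM in every sample. The part of these differences in any result given here was not tested.

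With si-CNN3, 8 of the 20 cytosolic synthetases rose and none fell, while 12 did not pass the test. The 8 were CARS, MARS, YARS, GARS, SARS, TARS, AARS and IARS, which charge cysteine, methionine, tyrosine, glycine, serine, threonine, alanine and isoleucine. The rises were small, from a log2 fold change of 0.08 for IARS to 0.23 for CARS, and in bulk RNA more of a transcript per cell and more cells that hold it cannot be told apart. That is 40.0% of the cytosolic genes called higher, beside 6.17% of all 15860 tested genes called higher and 7.14% called lower. The cytosolic genes were measured more precisely, with a median SE of 0.03 against 0.07 over all tested genes. The part of this difference in precision in these shares was not tested. In 9 of the 20 (the 8 and LARS) every si-CNN3 sample lay above every si-NC sample, and in 0 of them below, where the same holds for 13.9% and 14.3% of all tested genes. The median log2 fold change was 0.05 over the 20 cytosolic genes (0.03 without si-CNN3 replicate 3) and 0.00 over all tested genes. At an unadjusted p of 0.05 edgeR likewise placed 8 cytosolic genes higher and 0 lower, and the share over all genes was not computed there. At the adjusted threshold DESeq2 and limma called 6 and 7 of them higher and 0 lower. Over all genes, DESeq2 called 436 higher and 651 lower of 30501. Limma on log2(FPKM + 1) called 799 higher and 564 lower of 13979.

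Of the 16 mitochondrial synthetases none rose, 1 fell and 15 did not pass the test. The gene that fell was MARS2, which charges methionine in the mitochondrion. This is 6.25% of the mitochondrial genes, against the background of 7.14%, and MARS2 was also the only one of the 16 whose groups did not overlap. The median log2 fold change over the 16 was 0.01 (-0.03 without si-CNN3 replicate 3), with 8 genes above 0 and 8 below it. At an unadjusted p of 0.05 edgeR placed 0 of them higher and 1 lower. DESeq2 and limma gave no adjusted p for SARS2, and neither called any of the other mitochondrial genes in either direction.

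**Figure D1:**
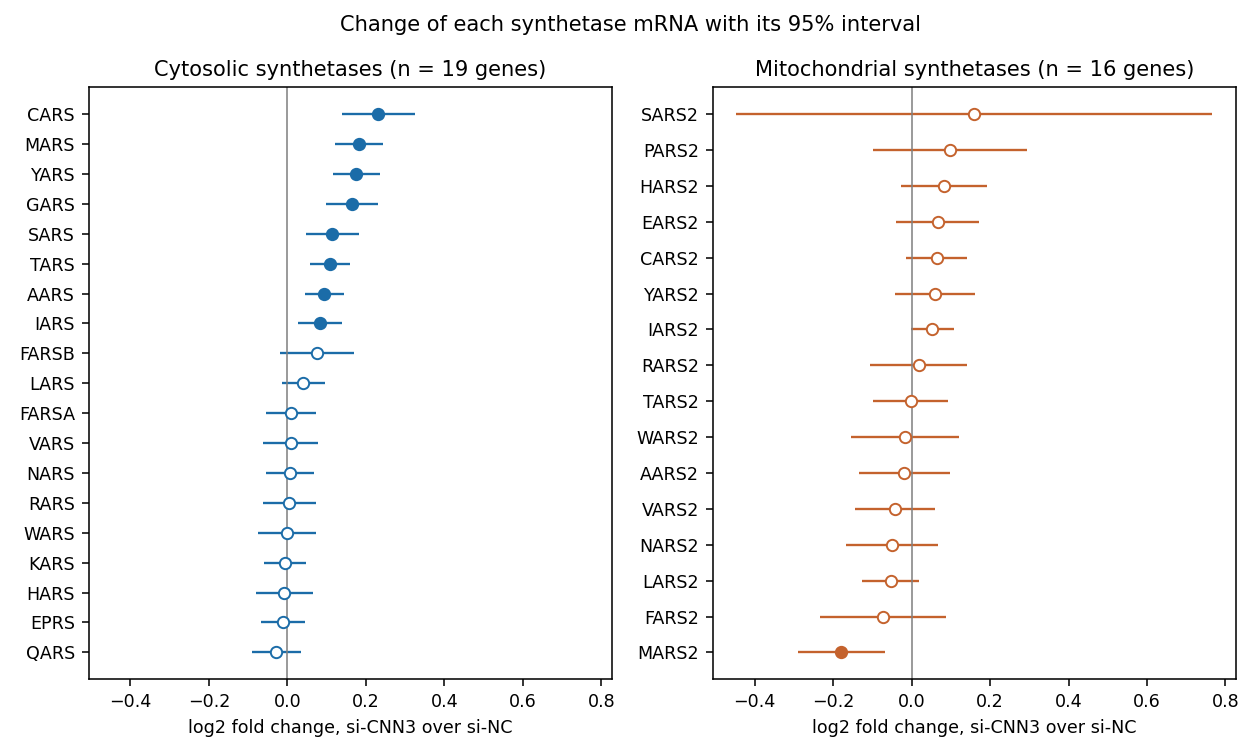
The log2 fold change of si-CNN3 over si-NC (horizontal axis) is plotted for 19 cytosolic genes on the left and the 16 mitochondrial genes on the right, with bars for the 95% interval of the edgeR fit and filled points for an adjusted p of 0.05 or less. The 8 filled cytosolic points lie between 0.08 and 0.23, the open ones lie between -0.03 and 0.08, and the single filled mitochondrial point is MARS2 at -0.18.

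The promoters of the members were searched for the 8 letters TGATGNAA, the core of the C/EBP-ATF response element through which ATF4 is known to act, on both strands and with no other motif searched. RefSeq windows from 250 bases before to 50 after the transcript start (GRCh38.p14) were at hand for 16 cytosolic and 14 mitochondrial genes. LARS, VARS, YARS, AARS2 and VARS2 were among those without a window. A gene can have more than 1 window, and a match in any of them was counted. The letters were found in 7 of the 16 cytosolic genes and in 1 of the 14 mitochondrial genes, beside 4.46% of the 27305 genes that have a window. Counted by window, 3.62% of all 35116 held them. The word was TGATGCAA in AARS, CARS, IARS, MARS, NARS and TARS, TGATGAAA in GARS, and TGATGGAA in YARS2. TGATGCAA, which was singled out after these matches were seen, lies in a window of 1.08% of all genes. The stretches are shown because the matching genes include 6 of the 8 cytosolic genes that rose. Each is given 5′ to 3′ on the transcribed strand as 30 bases with the match in capitals, so that TTGCATCA is the same word read on the other strand.
AARS: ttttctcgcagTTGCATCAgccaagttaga
CARS: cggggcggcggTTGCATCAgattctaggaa
GARS: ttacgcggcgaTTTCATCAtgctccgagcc
IARS: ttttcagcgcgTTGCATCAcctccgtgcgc
MARS: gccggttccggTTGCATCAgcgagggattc
NARS: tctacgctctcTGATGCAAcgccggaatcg
TARS: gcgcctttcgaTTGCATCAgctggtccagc
YARS2: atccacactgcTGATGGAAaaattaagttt

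These stretches lie on GRCh38.p14 at chr16:70289675-70289704 (AARS, minus strand), chr11:3057407-3057436 (CARS, minus), chr7:30594834-30594863 (GARS, plus) and chr9:92293692-92293721 (IARS, minus). The others lie at chr12:57488053-57488082 (MARS, plus), chr18:57621804-57621833 (NARS, minus), chr5:33440956-33440985 (TARS, plus) and chr12:32756076-32756105 (YARS2, minus). Counted from the transcript start of its window, the first base of the match stood at -187 in AARS, -33 in GARS, -13 in IARS and -4 in MARS. It stood at -2 in CARS, 2 in TARS, 14 in NARS and -197 in YARS2. For GARS this is window 2 of the gene, and for the others window 1.

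Among the cytosolic genes whose window held TGATGCAA, 5 of 6 were called higher, and the gene that was not is NARS, which charges asparagine. Of the 10 cytosolic genes with a window but without this word, 2 were called higher (GARS and SARS), as was 1 of the 4 without a window (YARS). Over the 11020 tested genes that matched a window, 17 of the 76 with TGATGCAA were called higher, or 22.4%, against 6.84% of those without it. The shares called lower were 7.89% and 8.19%. With the wider TGATGNAA, 14.1% were called higher and 10.2% lower, against 6.75% and 8.13% without it, and the median log2 fold change was 0.01 with it and 0.00 without it. The 76 include the 6 synthetases in which the word was first seen, and the 17 include the 5 of them called higher. The share without these synthetases was not computed. A match of letters is a description of the sequence and shows no binding, and binding of any factor was not measured here.

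**Figure D2:**
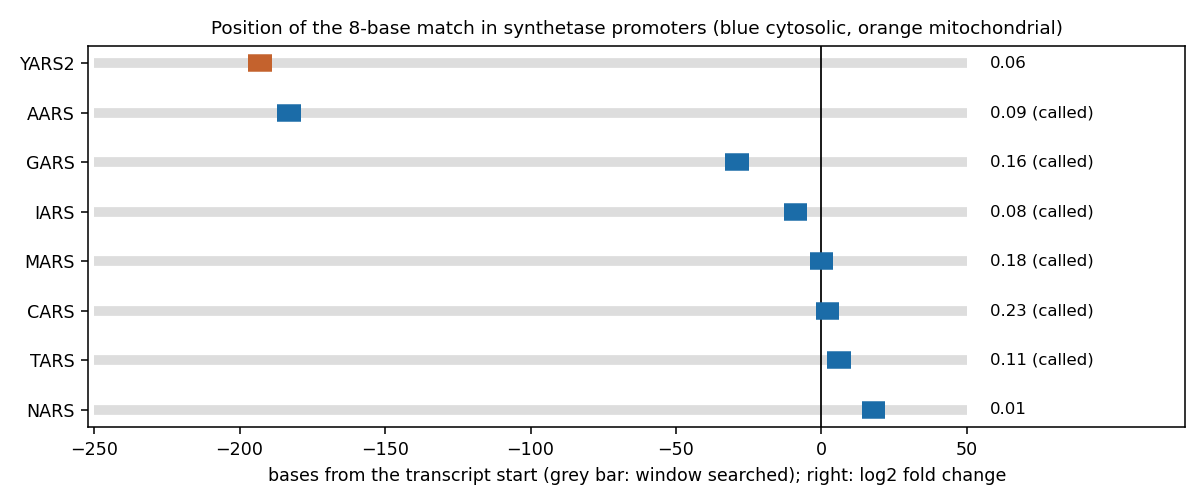
The 8 synthetase promoters with a match are drawn as grey bars from 250 bases before to 50 bases after the transcript start (horizontal axis, in bases), with the 8-base match in blue for cytosolic and orange for mitochondrial genes and the log2 fold change at the right. The matches of GARS, IARS, MARS, CARS, TARS and NARS lie between -33 and 14, and those of AARS and YARS2 lie near the far end at -187 and -197.

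CARS (ENSG00000110619, chr11:3000922-3057613, minus strand of GRCh38), the cysteinyl-tRNA synthetase, showed the largest fold change of the 36. Its normalized level was 61.3, 60.8 and 61.1 CPM in si-CNN3 replicates 1 to 3 and 57.0, 47.8 and 51.8 CPM in si-NC replicates 1 to 3. All 3 si-CNN3 samples lay above the highest si-NC sample, and the spread was wider among the si-NC samples. The log2 fold change was 0.23 (SE 0.05, edgeR adjusted p = 0.000219), with a 95% interval from 0.14 to 0.33. It ran from 0.17 to 0.30 over the 15 alternative settings.

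MARS (ENSG00000166986, chr12:57475445-57517569, plus strand), the methionyl-tRNA synthetase of the multisynthetase complex, stood at 181.5, 173.2 and 176.7 CPM with si-CNN3 and at 157.3, 152.9 and 158.4 CPM with si-NC. The groups did not overlap, and their means were 177 ± 4.14 and 156 ± 2.95 CPM (SD, n = 3 each). The rise of 13.5% corresponds to a log2 fold change of 0.18 (SE 0.03, adjusted p = 6.25e-06 in edgeR). Its exons share 355 bases with DDIT3 on the opposite strand, which had 87 to 119 counts per sample where MARS had 3156 to 3805, and the part of the shared reads in this rise was not tested.

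For YARS (ENSG00000134684, chr1:32775237-32818153, minus strand), which charges tyrosine, the levels were 197.7, 185.8 and 196.5 CPM with si-CNN3 and 172.2, 168.6 and 173.1 CPM with si-NC. Every si-CNN3 sample was above every si-NC sample, with replicate 2 the lowest of each group. YARS rose by a log2 fold change of 0.17 (SE 0.03, edgeR adjusted p = 1.27e-05). It shares 396 exon bases with S100PBP on the opposite strand, which had 887 to 1156 counts per sample against 3454 to 4196 for YARS.

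GARS (ENSG00000106105, chr7:30594681-30634033, plus strand) gives rise to both the cytosolic and the mitochondrial glycyl-tRNA synthetase. It was at 155.3, 151.4 and 156.3 CPM with si-CNN3 and at 140.4, 128.9 and 144.3 CPM with si-NC. The 2 groups were apart, the nearest values being 151.4 and 144.3 CPM. Its log2 fold change was 0.16 (SE 0.03, adjusted p = 0.000214 in edgeR). Gene counts do not separate the transcripts of the 2 forms. KARS, the lysyl-tRNA synthetase and the other gene of this kind, did not pass the test.

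TARS (ENSG00000113407, chr5:33440696-33469539, plus strand), which charges threonine, measured 454.9, 439.7 and 461.0 CPM with si-CNN3 and 419.1, 411.2 and 427.3 CPM with si-NC. Its groups did not overlap and its log2 fold change was 0.11 (SE 0.03, edgeR adjusted p = 0.00214). SARS (ENSG00000031698, chr1:109213918-109238169, plus strand), the seryl-tRNA synthetase, which also charges the transfer RNA for selenocysteine, measured 112.6, 106.3 and 108.2 CPM with si-CNN3 and 100.4, 99.1 and 102.7 CPM with si-NC. Again no sample of one group reached the other, and the log2 fold change was 0.11 (SE 0.03, edgeR adjusted p = 0.0163). SARS missed the threshold in DESeq2 (adjusted p = 0.0866) and without si-CNN3 replicate 1 (0.126), si-NC replicate 1 (0.0505) or si-NC replicate 2 (0.0917), in a range of 0.00283 to 0.126 over the alternatives.

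AARS (ENSG00000090861, chr16:70252295-70289543, minus strand), the alanyl-tRNA synthetase, had the most counts of the 36, from 13721 to 18034 per sample. Its level was 787, 775 and 752 CPM with si-CNN3 and 726, 725 and 717 CPM with si-NC. The lowest si-CNN3 sample was above the highest si-NC sample, and the log2 fold change of 0.09 (SE 0.02) had an edgeR adjusted p of 0.00549. IARS (ENSG00000196305, chr9:92210207-92293756, minus strand), which charges isoleucine in the multisynthetase complex, was at 285.6, 291.4 and 293.0 CPM with si-CNN3 and 274.4, 263.6 and 283.7 CPM with si-NC. The groups did not overlap, but the highest si-NC sample (283.7 CPM) nearly reached the lowest si-CNN3 sample (285.6 CPM). IARS had the smallest rise of the 8, with a log2 fold change of 0.08 (SE 0.03, edgeR adjusted p = 0.0360), and it missed the threshold in 8 of the 15 alternatives. Those were DESeq2, no filter on low counts, both limma tests and the fits without si-CNN3 replicate 2 or 3 or si-NC replicate 1 or 2, and over all 15 the adjusted p ranged from 0.00181 to 0.301.

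MARS2 (ENSG00000247626, chr2:197705369-197708387, plus strand), the mitochondrial counterpart of MARS, moved the other way. Its level was 28.6, 29.6 and 28.4 CPM with si-CNN3 and 31.1, 32.4 and 34.4 CPM with si-NC. Its highest si-CNN3 value was under its lowest si-NC value, and the means were 28.8 ± 0.64 and 32.6 ± 1.66 CPM (SD, n = 3 each). The log2 fold change was -0.18 (SE 0.06, edgeR adjusted p = 0.0225), with a 95% interval from -0.29 to -0.07. The call was lost in 6 of the 15 alternatives, among them DESeq2 (adjusted p = 0.148), both limma tests (0.138 and 0.135) and the fits without si-CNN3 replicate 1 (0.0711), si-CNN3 replicate 3 (0.0766) or si-NC replicate 3 (0.149). Over all 15 it ranged from 0.0117 to 0.149.

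**Figure D3:**
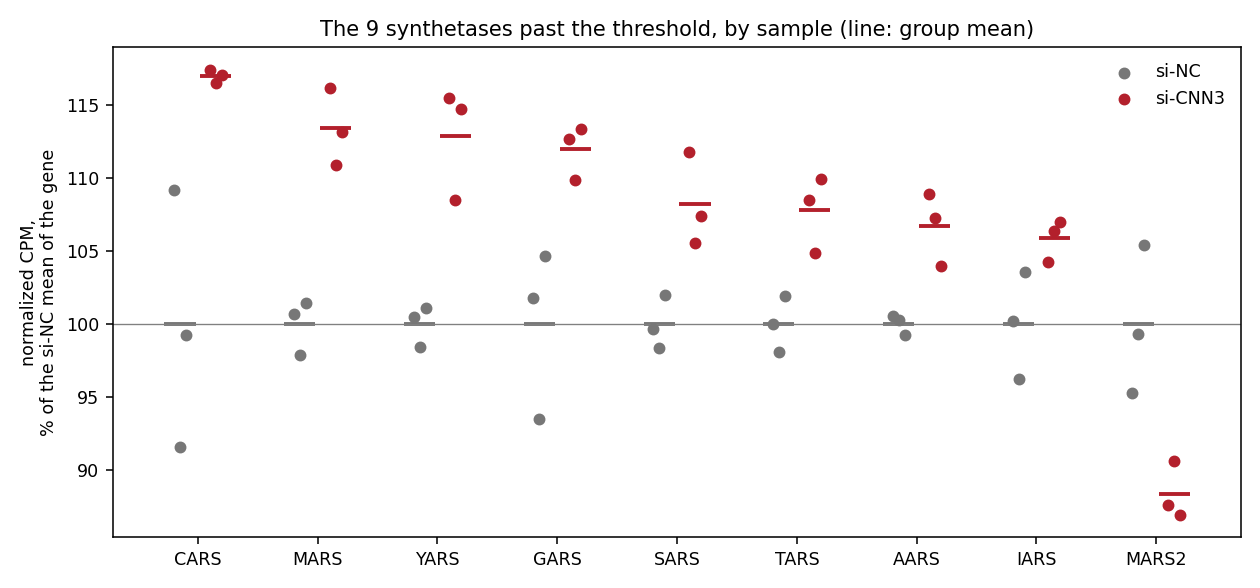
Each point is 1 sample of 1 of the 9 genes past the threshold, as normalized CPM in percent of the si-NC mean of that gene (vertical axis, which does not start at 0), with si-NC in grey, si-CNN3 in red and lines at the group means. The 3 red points lie above the 3 grey points in the 8 cytosolic genes and below them in MARS2, and the gap is narrowest for IARS.

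Among the genes that did not pass, the 3 with the most counts were KARS, IARS2 and EPRS. KARS was at 386.9, 387.2 and 388.8 CPM with si-CNN3 and 385.4, 377.2 and 405.0 CPM with si-NC. The si-CNN3 samples fell inside the range of the si-NC samples, and the log2 fold change was -0.01 with a 95% interval from -0.06 to 0.05 (edgeR adjusted p = 0.928). EPRS, a fused enzyme that charges both glutamate and proline, was at 239.3, 234.2 and 239.3 CPM with si-CNN3 and 239.9, 231.9 and 246.9 CPM with si-NC. Here too the si-CNN3 samples lay inside the si-NC range, with a log2 fold change of -0.01 and an interval from -0.07 to 0.05 (edgeR adjusted p = 0.858). IARS2, which charges isoleucine in the mitochondrion, was at 282.4, 275.8 and 267.7 CPM with si-CNN3 and 262.8, 263.6 and 269.7 CPM with si-NC. Its groups overlapped through si-CNN3 replicate 3, and the log2 fold change was 0.05 (SE 0.03, edgeR adjusted p = 0.214).

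LARS, the leucyl-tRNA synthetase, was the gene that did not pass although its groups were apart. It stood at 215.1, 217.5 and 216.7 CPM with si-CNN3 and 210.1, 209.4 and 211.8 CPM with si-NC, a log2 fold change of 0.04 (SE 0.03, edgeR adjusted p = 0.389). FARSB and FARSA, the subunits of the phenylalanyl-tRNA synthetase, had log2 fold changes of 0.08 and 0.01. The enzymes for valine, asparagine, arginine, tryptophan, histidine and glutamine (VARS, NARS, RARS, WARS, HARS and QARS) lay between 0.01 and -0.03.

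The 15 mitochondrial genes that did not pass had log2 fold changes from -0.07 for FARS2 to 0.16 for SARS2. SARS2, the mitochondrial seryl-tRNA synthetase, had 12 to 22 counts per sample, and its 95% interval ran from -0.45 to 0.77, which holds the log2 fold change of each of the 8 cytosolic genes that rose. PARS2, HARS2, EARS2, CARS2 and YARS2, for proline, histidine, glutamate, cysteine and tyrosine, had values of 0.10, 0.08, 0.07, 0.06 and 0.06. RARS2, for arginine, had 0.02, while TARS2, WARS2, AARS2, VARS2, NARS2 and LARS2, for threonine, tryptophan, alanine, valine, asparagine and leucine, lay between 0.00 and -0.05. SARS2 shares 1492 of its 3231 exon bases with an overlapping gene model on the same strand that had 0 counts, and VARS2 shares 1858 of 8448 with GTF2H4, which had at most 4 counts, so that reads in the shared bases may have been left uncounted. HARS2 shares 437 exon bases with HARS, which lies on the opposite strand.

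The 2 sets were not measured with equal precision. Counts per sample ran from 854 to 18034 for the cytosolic genes and from 12 to 6561 for the mitochondrial genes, and the median SE of the log2 fold change was 0.03 and 0.06. The median log2 fold change of the 8 cytosolic genes that rose was 0.14. Of the 15 mitochondrial genes that did not pass, 8 had a 95% interval wholly below this value and 7 had an interval that holds it. Of the 12 cytosolic genes that did not pass, 11 had an interval below it and 1 (FARSB) an interval that holds it. A change of this size is therefore neither shown nor excluded in those 7 mitochondrial genes.

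**Figure D4:**
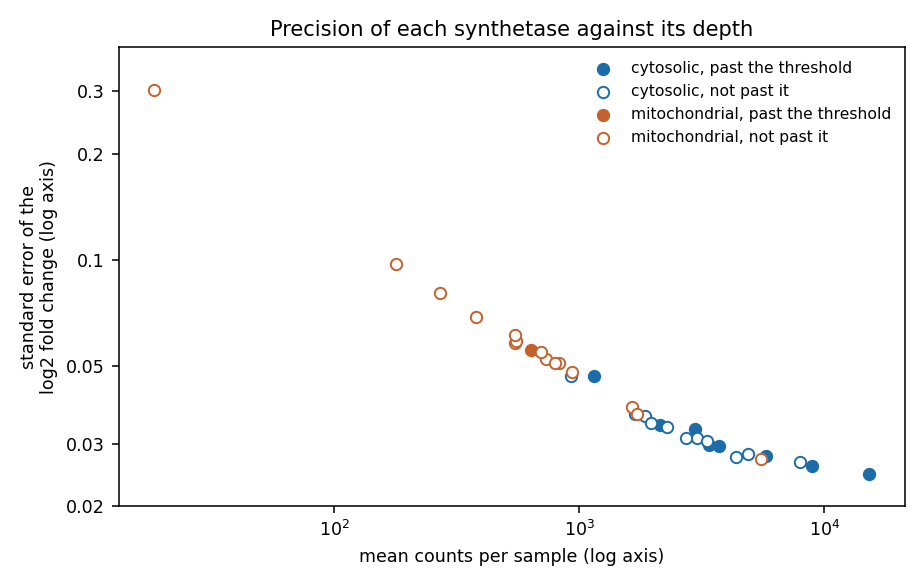
The standard error of the log2 fold change (vertical log axis) is plotted against the mean counts per sample (horizontal log axis) for 35 genes, blue for cytosolic and orange for mitochondrial, filled where the adjusted p was 0.05 or less. The error falls as counts rise, from SARS2 with 12 to 22 counts at the upper left to AARS with up to 18034 counts at the lower right, and most orange points lie to the left of the blue ones.

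Per gene length, as FPKM in the si-NC samples, the cytosolic genes had a median level of 119.5 (range 16.5 for FARSB to 674 for AARS) and the mitochondrial genes a median level of 25.5 (range 0.822 for SARS2 to 150 for IARS2). AARS was followed by KARS at 358 ± 12.7, TARS at 249.9 ± 4.35, MARS at 169 ± 2.70, EPRS at 162 ± 4.75, NARS at 152 ± 5.64 and IARS2 at 150.2 ± 2.23 FPKM (SD, n = 3 each). The si-NC samples of AARS, KARS, TARS and MARS did not overlap in that order, whereas those of MARS and EPRS, of EPRS and NARS and of NARS and IARS2 did. IARS2 was the only mitochondrial gene among the highest 10. This order rests on the gene lengths behind the deposited FPKM values, whose annotation is not given and which were not checked. By normalized CPM in si-NC, which uses no length, MARS (156) lay below EPRS (240) and NARS (162).

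Each mitochondrial gene was set beside its cytosolic partner for the same amino acid, which gives 17 pairs, with EPRS standing for both EARS2 and PARS2 and both subunits of the phenylalanine enzyme beside FARS2. The cytosolic gene had the higher FPKM in 15 of the 17 pairs. The exceptions were CARS at 0.346 times the level of CARS2 and IARS at 0.951 times that of IARS2. The highest ratio was 95.1 for SARS over SARS2. These ratios depend on the same unchecked gene lengths. By normalized CPM in si-NC, IARS (274) was above IARS2 (265), while CARS (52.2) remained below CARS2 (78.9). In 12 of the 17 pairs the cytosolic log2 fold change was the higher of the pair, and in 5 the mitochondrial one was (EPRS with EARS2, EPRS with PARS2, HARS with HARS2, RARS with RARS2 and SARS with SARS2). The median difference was 0.06 on the log2 scale.

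**Figure D5:**
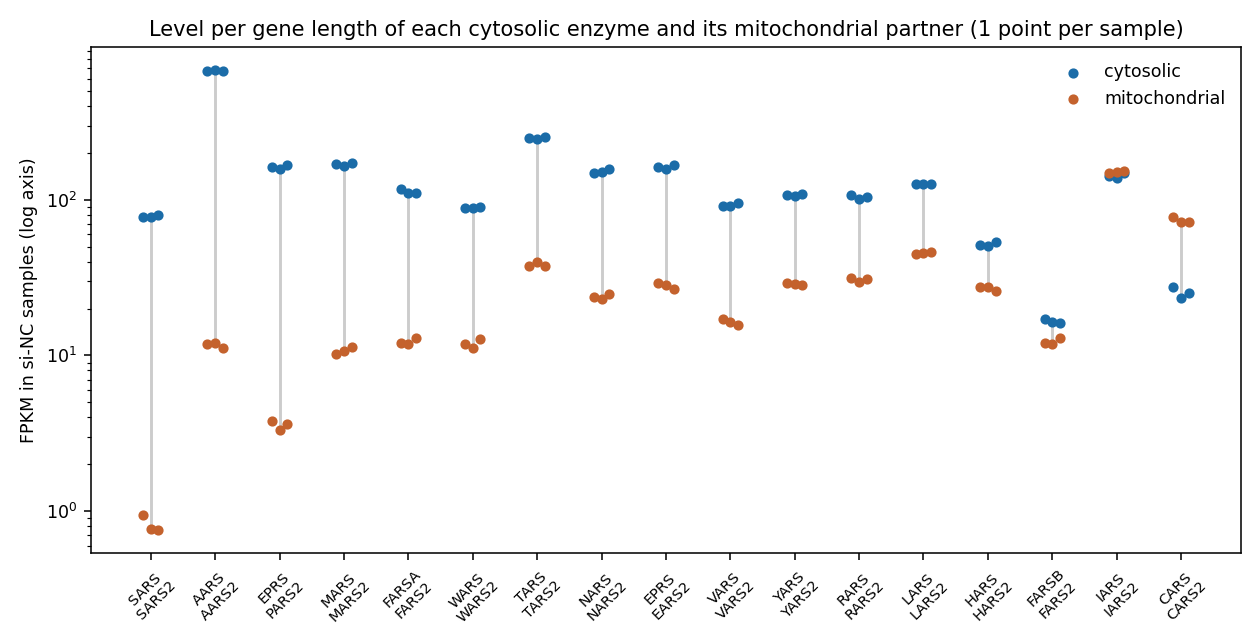
FPKM in the 3 si-NC samples (vertical log axis, 1 point per sample) is plotted for the 17 pairs, blue for the cytosolic and orange for the mitochondrial gene, ordered from the highest ratio on the left to the lowest on the right. The blue points lie above the orange ones in 15 pairs, IARS and IARS2 lie at almost the same level, and CARS lies below CARS2.

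The log2 ratio of cytosolic to mitochondrial CPM within a sample did not overlap between groups in 5 pairs, those of CARS, LARS, MARS, TARS and YARS. It was higher with si-CNN3 in all 5. These 5 cytosolic genes are among the 9 whose own groups did not overlap, so their ratios are not separate results. Single genes did not overlap upward in 13.9% and downward in 14.3% of all tested genes, and no such share was computed for ratios. MARS over MARS2 moved the most, from 2.26 ± 0.07 with si-NC to 2.62 ± 0.06 with si-CNN3 (SD, n = 3 each). In the exact two-sided permutation test these 5 pairs reached p = 0.1, the smallest value that 3 samples against 3 allow, and the adjusted value over the 17 pairs was 0.34, so none passed. For CARS over CARS2 the mean log2 ratio was -0.60 with si-NC and -0.43 with si-CNN3.

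Summed over the 20 cytosolic genes, the level was 4040, 3982 and 4024 CPM with si-CNN3 and 3845, 3760 and 3896 CPM with si-NC, which is 4.74% higher with si-CNN3. The lowest si-CNN3 sample was above the highest si-NC sample. The 16 mitochondrial genes summed to 800.4, 779.2 and 780.8 CPM with si-CNN3 and to 781.4, 771.2 and 780.0 CPM with si-NC, a difference of 1.19% with overlapping groups. The cytosolic sum was 5.05, 5.11 and 5.15 times the mitochondrial sum with si-CNN3 and 4.92, 4.88 and 5.00 times with si-NC. As a share of all counts, the cytosolic synthetases took 0.403% ± 0.00147 with si-CNN3 and 0.381% ± 0.00596 with si-NC (SD, n = 3 each).

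Within the cytosolic set, the 8 enzymes of the multisynthetase complex, EPRS, KARS, LARS, QARS and RARS among them, included 2 that rose, IARS and MARS, with a median log2 fold change of 0.02. The 12 outside it included 6 that rose (AARS, CARS, GARS, SARS, TARS and YARS), with a median of 0.08. By catalytic fold, 4 of 9 class I enzymes (CARS, IARS, MARS and YARS) and 4 of 10 class II enzymes (AARS, GARS, SARS and TARS) rose, with medians of 0.04 and 0.07, and EPRS, which holds both folds, was counted in neither. The difference between these subsets was not tested. Without GARS and KARS, 7 of 18 cytosolic genes were called and the median remained 0.05.

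Genes of related steps were read from the same fit, in which 6.17% of all tested genes were called higher and 7.14% lower. Of the 3 scaffold proteins of the multisynthetase complex, AIMP1 rose (log2 fold change 0.14, SE 0.05, edgeR adjusted p = 0.0454) and AIMP2 and EEF1E1 did not pass. Of 11 tested genes for other charging and proofreading steps, 1 rose (9.09%, near the share over all tested genes) and 10 did not pass. The gene that rose was DTD1, a deacylase that removes D-amino acids from transfer RNA (log2 fold change 0.18, SE 0.06, edgeR adjusted p = 0.0498). Of 19 tested genes of transfer RNA maturation and export, 1 rose (5.26%) and 2 fell (10.5%), which is near the shares over all tested genes. SSB, the La protein that binds new transfer RNA ends, had a log2 fold change of 0.09 (SE 0.03, edgeR adjusted p = 0.0448). CLP1, an RNA kinase of the splicing endonuclease complex, fell by 0.32 (adjusted p = 0.00232), and TSEN15, a subunit of that endonuclease, fell by 0.24 (adjusted p = 7.4e-05).

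In the list of the amino acid response, 11 of 23 tested genes rose (47.8%) and 1 fell (4.35%), with a median log2 fold change of 0.07. The shares over all tested genes were 6.17% and 7.14%. The largest rises were those of the transcription factor ATF3 (log2 fold change 1.33, SE 0.10, edgeR adjusted p = 2.48e-16), the glutathione-degrading enzyme CHAC1 (0.90, SE 0.11) and the stress factor DDIT3 (0.43, SE 0.13), followed by asparagine synthetase ASNS (0.43, SE 0.04). For ATF3 the si-NC samples held 101, 157 and 116 counts, and those with si-CNN3 held 283, 263 and 252. DDIT3, whose exons overlap those of MARS on the other strand, had 102 to 119 counts with si-CNN3 and 87 to 108 with si-NC. Whether reads were counted by strand is not given in the sources used here, so that reads of DDIT3 and of MARS in the shared bases cannot be told apart. The gene that fell was DDIT4, an inhibitor of mTORC1 signalling, at -0.33 (SE 0.03, edgeR adjusted p = 4.82e-14). The messenger RNA of ATF4, looked at after its values were seen, had a log2 fold change of 0.00 (95% interval from -0.06 to 0.05, edgeR adjusted p = 0.960).

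Of the 16 amino acid transporters, 4 rose, 1 fell and 11 did not pass, with a median of 0.00. Those that rose included the cystine carrier SLC7A11 (log2 fold change 0.62, SE 0.07), its partner subunit SLC3A2 (0.24, SE 0.02) and the leucine carrier SLC7A5 (0.21, SE 0.02). SLC1A5, a glutamine carrier, was the one that fell (-0.11, SE 0.03, edgeR adjusted p = 0.00602). TGATGCAA lay in the promoter windows of 3 of the 20 response genes that have one (CEBPG, CHAC1 and FGF21) and of 2 of the 15 transporters (SLC1A4 and SLC1A5, of which SLC1A5 fell). It was found in 0 of the windows of the scaffold, charging and maturation lists.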

How the data were processed

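RNA of 6 SiHa samples, 3 transfected with si-CNN3 and 3 with si-NC, was sequenced from TruSeq libraries, and samples were grouped by their labels. The submitters' processing notes name TopHat2 2.0.9, Bowtie2 2.0.6, HTSeq and DESeq 1.10.1. The genome build, the annotation and the strand setting are not given in the sources used here. The authors deposited raw read counts per Ensembl gene. The FPKM values, also deposited by the authors, equal the count over the column total and 1 whole-number gene length (within 0.01) for all 13486 genes that have 20 or more counts in each sample.

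Genes were named from GENCODE release 29 (GRCh38). Counts were fitted with edgeR's quasi-likelihood test (edgeR 4.0.16, R 4.3.3, TMM scaling, default filterByExpr, no covariate). P-values were adjusted after Benjamini and Hochberg over all 15860 tested genes, and an adjusted p of 0.05 or less counted as called. CPM values use TMM-scaled totals, except for the marker sums, which use plain totals. SE is the absolute log2 fold change over the square root of F. Pair ratios use the log2 of the ratio of these CPM values, with no prior count, and an exact permutation test. The correlations between samples use log2 CPM with a prior count of 2. Within each group the samples differed beyond counting noise, so none was merged, but the excess was small. Between samples of the same group, the squared scatter over genes was 1.56 to 1.97 times what counting alone would give. The common coefficient of variation beyond counting, as estimated by edgeR, was 0.023. The p-values measure the spread between these samples. The paper describes 3 independent assays per group, and whether so small a spread would hold in further transfections was not tested.

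Alternatives were RLE, upper quartile or total-count scaling, DESeq2 1.42.0, low genes kept, a minimum of 10 counts in each sample, a replicate block, each sample left out, GARS and KARS left out, and limma 3.58.1 on log2(FPKM + 1) and on log2(FPKM + 0.1), where mean FPKM had to reach 1. Adding 1 understates the change of low genes. On simulated counts for this comparison, edgeR recovered 98.2% of genes changed by 0.5 and 100% of those changed by 1 (log2), with 5 false calls among 15879 genes. Smaller changes were not simulated, and the same spread was used for all genes. The recovery of changes of the size seen in the members called higher (0.08 to 0.23) is therefore not known.

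All members but 1 are named, and that cytosolic gene enters the counts and sums but is not reported here on its own. Values in every sample are given for members past the threshold and for the 3 others with the most counts, and LARS, DDIT4 and ATF4 were added after their values were seen. From each related list at most 4 called genes are named, those with the largest change. The members and lists were chosen with earlier results of these data known. Protein sequences were not analysed here.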

Additional observations from a re-analysis of the deposited data

How the results depend on the processing

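AARS, CARS, GARS, MARS, TARS and YARS kept their direction and stayed past the threshold under all 15 alternatives, with AARS the closest to it (adjusted p up to 0.0488). The number of cytosolic genes called higher was 8, and it was 6 with DESeq2, 7 with no filter on low counts, 7 in both limma tests, 7 with GARS and KARS left out and 6 to 8 with 1 sample left out. None of the cytosolic genes was called lower and none of the mitochondrial genes higher under any alternative. MARS2 made the count of mitochondrial genes called lower 1, and this was 0 with DESeq2 and in both limma tests and ranged from 0 to 1 with 1 sample left out. Without si-CNN3 replicate 3 the median log2 fold change of the mitochondrial genes turned to -0.03 and that of the cytosolic genes moved from 0.05 to 0.03. Over all tested genes, 2111 were called, against 1087 with DESeq2, 1363 and 1353 with limma on log2(FPKM + 1) and log2(FPKM + 0.1), and 1551 to 1747 with 1 sample left out. The cause of these differences was not tested. Samples that share a replicate number did not deviate together (correlations of 0.01, 0.03 and 0.03 over genes), although each correlated best with its own number. With the replicate block 2727 genes were called, with 8 cytosolic genes higher and 1 mitochondrial gene lower as without it. SARS2 was tested in only 12 of the 15 alternatives. Depth limits the mitochondrial genes most, and a single siRNA, cell line and time were measured.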
